A study of Mus musculus with 4 samples.

Results

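Expression of 10 genes of plasma membrane repair was followed in soleus muscle of dystrophic female *mdx* mice given mouse cardiosphere-derived cells (mCDCs) or vehicle. The 10 genes were chosen by symbol: the ferlins Dysf and Myof, the muscle fibre genes Ano5, Trim72, Cav3 and Capn3, and the annexins Anxa1, Anxa2, Anxa5 and Anxa6. All 10 are among the 24054 symbols of the expression table, and all 10 passed the filter on low counts that 13652 genes passed. The soleus is a hindlimb muscle rich in slow fibres, and *mdx* mice carry a mutation of the dystrophin gene, which the vehicle mice share. Treatment began at 8 weeks of age and was repeated monthly by infusion into the femoral vein until the 12-month endpoint. The mCDC group (2 libraries) received cells (passage 5) grown from the heart of a female C57BL/10ScSn/J mouse, the strain on which the *mdx* mutation is carried, and the vehicle group (2 libraries) received the medium (IMDM) alone. Libraries made from purified total RNA were sequenced, and the summed expected counts lay between 22481391 and 27187425 per library.

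A torn sarcolemma, the plasma membrane of a muscle fibre, is resealed within seconds when calcium flows in. Dysferlin brings vesicles to the wound, MG53 (the product of Trim72) gathers them there, and annexins assemble into a cap over the lesion, while caveolae supply and take up membrane. Without dystrophin the sarcolemma tears easily during contraction, so this machinery is in constant demand in *mdx* fibres. Loss of DYSF, ANO5, CAPN3 or CAV3 itself causes muscle disease in people.

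Of the 10 genes, Anxa2 alone was called higher with mCDCs and none was called lower, where called means a change of over 1.5-fold with an unadjusted p under 0.05 in edgeR's quasi-likelihood test. Of all genes tested, 1.26% were called higher and 2.74% lower, so 31.5% of called genes were higher (19.2% when scaled by library totals alone, 43.4% with trends of length and GC content removed). Trim72, Cav3 and Anxa2 had an unadjusted p under 0.05, as did 947 genes, or 6.94% of all tested. Adjusted over all genes by the Benjamini-Hochberg method, no p in the whole table was under 0.05, where DESeq2 put 48 genes under it and none of the 10. The smallest adjusted p among the 10 was 0.705, for Anxa2. With 2 libraries in each group, an exact two-sided permutation test of a single gene cannot go below p = 0.333, and as the labels do not say which mouse each library came from, p-values measure only the spread between these libraries. The fold changes of 8 genes were above 0 and of 2 below (7 above 0 with library totals alone, all 10 with the trends removed), with a median log2 fold change of 0.26 against -0.0094 over all genes tested. Without mCDC replicate 2 the median of the 10 was 0.12 and none had an unadjusted p under 0.05, and without mCDC replicate 1 the median was 0.44 and 6 had one.

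The sequences before 3 of the transcription starts are shown because Trim72, Cav3 and Anxa2 are the genes whose unadjusted p was under 0.05. They come from RefSeq on mouse build GRCm38.p6, 5′ to 3′ on the plus strand, and capitals mark the motif matches found on either strand. One motif searched was the E-box, CANNTG, which myogenic factors bind. Another was the AP-1 site, written TGANTCA, which Fos and Jun proteins bind. The search also covered the GC box GGGCGG of many housekeeping promoters. The last searched were the MEF2 motif and the TATA motif TATAAA, and no matches overlapped each other in these stretches. Each stretch holds the bases before the RefSeq start, and for Anxa2 it stops where the first annotated exon begins. The Trim72 stretch lies inside the annotated span of the gene, which begins at 128003949, though in none of its annotated exons.
Trim72, chr7:128004128-128004377: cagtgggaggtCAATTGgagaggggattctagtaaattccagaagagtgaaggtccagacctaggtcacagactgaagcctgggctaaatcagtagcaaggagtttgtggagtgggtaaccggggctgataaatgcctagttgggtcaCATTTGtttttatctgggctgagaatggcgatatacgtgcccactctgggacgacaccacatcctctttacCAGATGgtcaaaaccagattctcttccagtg
Cav3, chr6:112459255-112459504: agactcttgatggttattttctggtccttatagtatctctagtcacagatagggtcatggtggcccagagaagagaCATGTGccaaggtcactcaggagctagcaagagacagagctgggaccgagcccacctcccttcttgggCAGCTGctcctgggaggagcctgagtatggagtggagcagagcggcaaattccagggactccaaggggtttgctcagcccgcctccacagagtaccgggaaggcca
Anxa2, chr9:69453433-69453619: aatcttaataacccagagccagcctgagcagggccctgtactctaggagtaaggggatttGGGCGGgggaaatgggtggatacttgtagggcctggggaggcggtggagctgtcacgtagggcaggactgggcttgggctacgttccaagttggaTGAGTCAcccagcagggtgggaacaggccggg

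Trim72 held 3 E-boxes in its 250 bases, the nearest at -31 to -26 from the start, and Cav3 held 2, at -174 to -169 and -106 to -101. Anxa2 held no E-box in the 250 bases before its start but 1 AP-1 match, at -95 to -89, 3 GC boxes, starting at -190, -48 and -24, and the TATA motif at -17 to -12, the last 3 of these matches lying in the exon that is not shown. Of 32851 mouse promoters of this length, 66.2% held an E-box, 6.75% an AP-1 match, 32.7% a GC box and 12.4% the TATA motif. Of the 9 genes found in the promoter table, 5 had an E-box at a listed start, namely Ano5, Trim72, Cav3, Capn3 and Anxa5, and Anxa2 alone had an AP-1 match. Capn3 also held a MEF2 motif, at -72 to -63 from one of its starts, as did 2.92% of promoters. A match of letters shows neither binding nor use.

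Dysf (chr6:84008590-84211060, plus strand, 55 exons in its longest coding transcript) codes for dysferlin, a calcium-sensing protein of repair vesicles. In counts-per-million units (CPM), with replicate 1 given before replicate 2 here and throughout, it was at 77.4 and 103 with mCDCs and at 77.0 and 75.4 with vehicle. Both vehicle libraries and mCDC replicate 1 lay close together and mCDC replicate 2 stood above them, so the groups did not overlap, but only narrowly. The log2 fold change was 0.25 ± 0.16 (SE; adjusted p = 0.767 by edgeR), and it was 0.024 when mCDC replicate 2 was left out and 0.44 when mCDC replicate 1 was. Exons of antisense genes overlap 352 and 105 bases of its exons, and since it is uncertain whether counting used strand, reads of the pair cannot be told apart here or in the other genes with such an overlap.

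Myof (chr19:37899036-38043577, minus strand) codes for myoferlin, the ferlin of myoblasts and regenerating fibres, which acts in myoblast fusion. Its level was 4.43 and 5.12 CPM with mCDCs and 4.35 and 6.22 CPM with vehicle. Both the lowest and the highest value were in the vehicle group, so the groups overlapped, and the log2 fold change was -0.15 ± 0.26 (SE; adjusted p = 0.901 by edgeR). Per transcript length, Dysf exceeded Myof 18.2-fold and 21.1-fold with mCDCs and 18.5-fold and 12.6-fold with vehicle. The adult ferlin was thus the more abundant in each library, and vehicle replicate 2, where Myof was highest, had the smallest ratio.

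**Figure D1:**
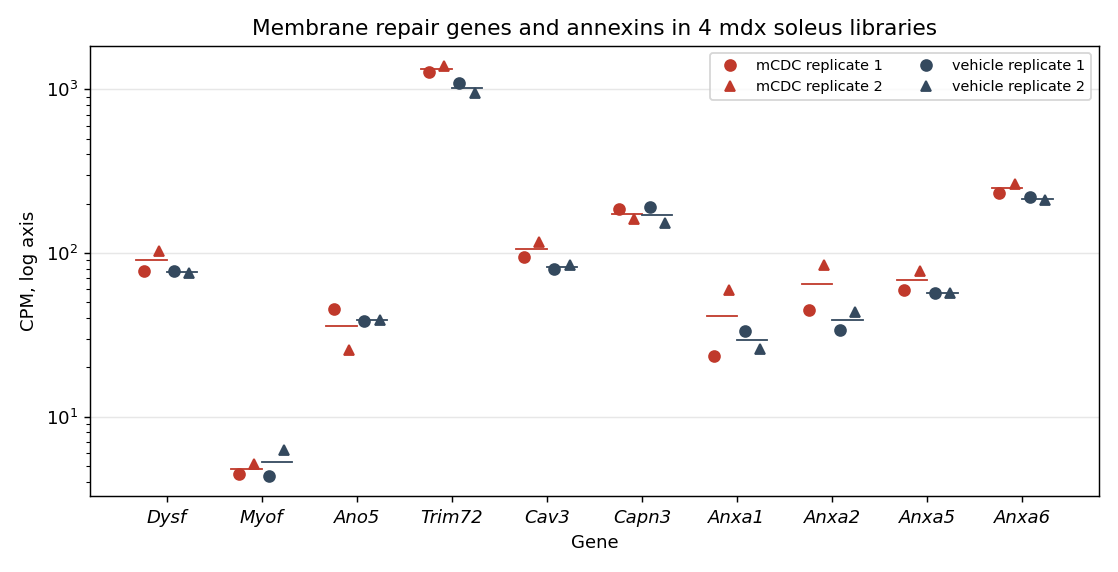
Level of each of the 10 genes in each library, in CPM on a log axis, with mCDC libraries in red and vehicle libraries in dark blue (circles, replicate 1; triangles, replicate 2; bars, group means). The vehicle libraries lie close together for most genes, while mCDC replicate 2 stands highest for 7 genes, by the widest margin for Anxa1 and Anxa2, and lowest for Ano5.

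Trim72 (chr7:128003949-128011033, plus strand) codes for MG53, a muscle-specific E3 ligase that senses oxidation at a wound and nucleates the repair patch. It was at 1274 and 1380 CPM with mCDCs and at 1089 and 955 CPM with vehicle. Both mCDC libraries were above both vehicle libraries, with a log2 fold change of 0.38 ± 0.15 (SE; adjusted p = 0.713 by edgeR), a 1.30-fold difference that is under the 1.5-fold limit. With a library left out, the log2 fold change ranged from 0.28 without vehicle replicate 2 to 0.48 without vehicle replicate 1, and the unadjusted p was under 0.05 only in the latter of the 4 fits. An antisense gene, Gm15533, overlaps 617 bases of its exons.

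Cav3 (chr6:112459505-112472872, plus strand) codes for caveolin-3, the coat protein of muscle caveolae and a binding partner of dysferlin and MG53. Its levels were 94.0 and 117 CPM in the mCDC group and 79.3 and 84.4 CPM in the vehicle group. The groups did not overlap, and the log2 fold change was 0.37 ± 0.15 (SE; adjusted p = 0.713 by edgeR), a 1.29-fold difference. Without mCDC replicate 2 it was 0.20, and without mCDC replicate 1 it was 0.52.

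Ano5 (chr7:51511029-51598709, plus strand) codes for anoctamin-5, a protein of the sarcoplasmic reticulum thought to move phospholipids and to help annexins reach a wound. It was at 45.7 and 25.5 CPM with mCDCs and at 38.7 and 38.9 CPM with vehicle. The mCDC libraries fell on either side of the vehicle pair, and the log2 fold change of -0.12 ± 0.25 (SE; adjusted p = 0.923 by edgeR) hides this spread. It was -0.60 without mCDC replicate 1, past the limits of a call, and 0.24 without mCDC replicate 2.

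Capn3 (chr2:120456019-120504913, plus strand) codes for calpain-3, a muscle protease held by titin that cleaves cytoskeletal and membrane-linked proteins. Its levels were 185 and 162 CPM with mCDCs and 190 and 152 CPM with vehicle. The groups overlapped fully, the vehicle libraries being both the highest and the lowest, and the log2 fold change was 0.02 ± 0.15 (SE; adjusted p = 0.987 by edgeR). The neighbouring gene Ganc shares 386 exonic bases on the same strand, so the split of reads between them is uncertain.

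Anxa2 (chr9:69453620-69491795, plus strand, 13 exons) codes for annexin A2, which binds membrane and actin, pairs with S100A10 and joins dysferlin at the wound. It was at 45.1 and 84.1 CPM in the mCDC group and at 34.0 and 43.3 CPM in the vehicle group. Both mCDC libraries were above both vehicle libraries, but mCDC replicate 1 exceeded vehicle replicate 2 by little, and the distance between the mCDC replicates was larger than that between the group means of 64.6 ± 27.5 and 38.7 ± 6.55 CPM (SD, n = 2 each). The log2 fold change was 0.74 ± 0.27 (SE; adjusted p = 0.705 by edgeR), a 1.67-fold difference. The call rested on mCDC replicate 2: without it the log2 fold change was 0.22, and without vehicle replicate 1 it was 0.58 and met neither limit of a call. It was 0.92 and called without vehicle replicate 2, and without mCDC replicate 1 it was 1.12 (adjusted p = 0.0191 by edgeR), where mCDC replicate 2 stood alone for its group. Scaled by library totals alone it was 0.66 and was not called. The antisense gene Gm16144 overlaps 98 bases of its exons.

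Anxa1 (chr19:20373428-20390944, minus strand) codes for annexin A1, a cap protein that also ends neutrophil recruitment. Its levels were 23.4 and 59.3 CPM with mCDCs and 33.2 and 26.0 CPM with vehicle. The mCDC libraries were at both extremes, so the groups overlapped, and the log2 fold change of 0.48 ± 0.37 (SE; adjusted p = 0.782 by edgeR) turned to -0.34 without mCDC replicate 2 and was 1.01 without mCDC replicate 1. Like Anxa2, it was high in 1 mCDC library, but unlike Anxa2 it was lowest in the other.

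Anxa5 (chr3:36448923-36475894, minus strand) codes for annexin A5, which forms flat lattices on exposed phosphatidylserine. It was at 59.5 and 77.8 CPM with mCDCs and at 56.9 and 56.6 CPM with vehicle. The groups did not overlap, the gap being small, and the log2 fold change was 0.27 ± 0.16 (SE; adjusted p = 0.747 by edgeR) with all libraries, 0.069 without mCDC replicate 2 and 0.46 without mCDC replicate 1.

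Anxa6 (chr11:54979108-55033445, minus strand) codes for annexin A6, an annexin with a duplicated core whose variants modify dystrophy in mice. Its levels were 233 and 263 CPM with mCDCs and 219 and 209 CPM with vehicle. These groups did not overlap either, and the log2 fold change was 0.21 ± 0.13 (SE; adjusted p = 0.763 by edgeR) with all libraries and 0.12 without mCDC replicate 2. All 4 annexins had a positive fold change, under every scaling tried and in each fit that left out a library except for Anxa1 without mCDC replicate 2, and all 4 were highest in mCDC replicate 2.

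Both mCDC libraries lay above both vehicle libraries for 6 of the 10 genes (Dysf, Trim72, Cav3, Anxa2, Anxa5 and Anxa6), as they did for 19.2% of all genes tested, and for none of the 10 did both lie below, against 19.5% of all genes. mCDC replicate 2 was the highest library for 7 of the 10, against 28.0% of all genes. Relative to the mean of the other 3 libraries its log2 level was 1.12 higher for Anxa1, 1.05 higher for Anxa2, 0.45 for Cav3, 0.43 for both Dysf and Anxa5, 0.33 for Trim72 and 0.25 for Anxa6, and it was -0.68 for Ano5. Over all genes the median absolute value of this difference was 0.20 for mCDC replicate 2, 0.13 for mCDC replicate 1, 0.19 for vehicle replicate 1 and 0.20 for vehicle replicate 2, so mCDC replicate 2 did not stand apart across the table by this measure.

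**Figure D2:**
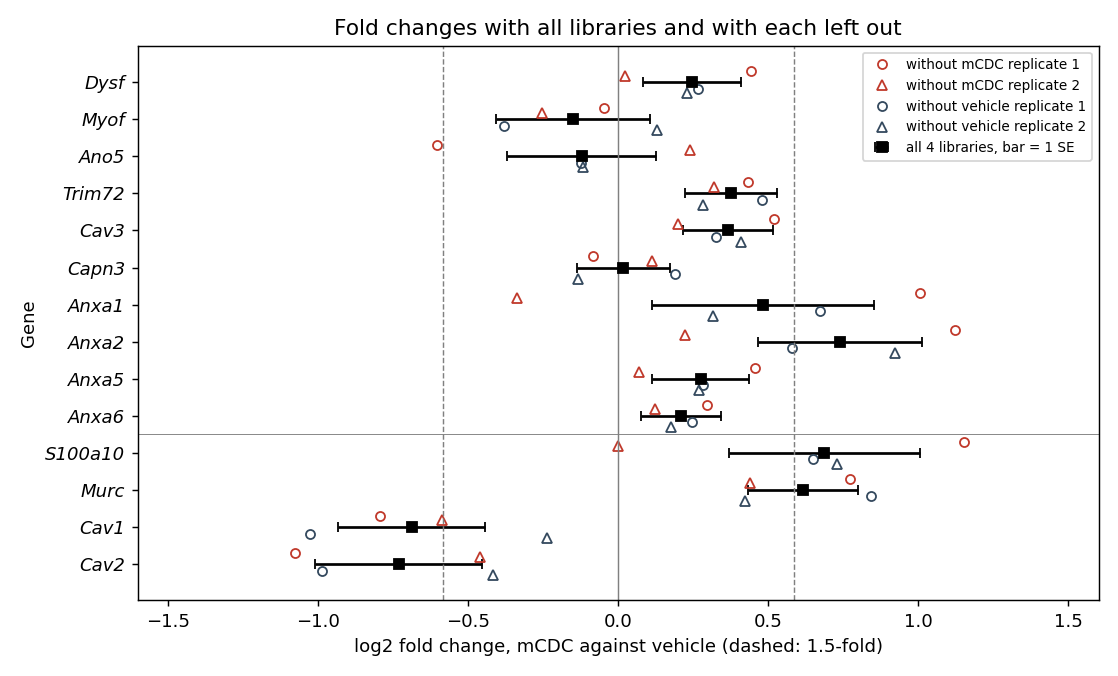
Log2 fold change of mCDC against vehicle for the 10 genes and 4 related genes, from all 4 libraries (squares, bars 1 SE) and after leaving out 1 library at a time (open symbols). Values without mCDC replicate 2 (red triangles) lie nearer to 0 than the full fit for Dysf, Anxa2 and Anxa5 and across 0 for Ano5 and Anxa1, while the 4 values of Trim72 lie between 0.28 and 0.48.

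Levels of different genes were compared per transcript length, as counts per base of the longest coding transcript, scaled so that all libraries have the same total (the TPM scale). Trim72 was by far the most abundant at 1192 ± 144 TPM (SD over 4 libraries), followed by Anxa6 at 201 ± 13.0, Cav3 at 175 ± 23.3 and Capn3 at 118 ± 15.4. Anxa5 at 78.4 ± 9.82 and Anxa2 at 76.7 ± 29.5 came next and could not be ordered, since the spread of Anxa2 covered Anxa5. Below them were Anxa1 at 45.8 ± 19.6, Dysf at 26.6 ± 3.41, Ano5 at 10.4 ± 2.49 and Myof at 1.54 ± 0.286. The ranges of neighbours overlapped for Anxa6 and Cav3, Anxa5 and Anxa2, Anxa2 and Anxa1, and Anxa1 and Dysf, and each other pair of neighbours was separate. Within each of the 4 libraries, however, the only neighbours to change places were Anxa5 and Anxa2, with Anxa5 higher in 3 of 4. In mCDC replicate 2, Anxa2 at 120 TPM also stood above Capn3 at 105 TPM. The place of Ano5 depended on the transcript: its longest form has 7785 bases and its principal one 2753, and with principal forms it was at 28.5 TPM, above Dysf at 26.2.

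Among the 12 annexin genes of the table, Anxa11 held on average 29.3% of all annexin transcripts per length, Anxa6 24.5%, Anxa7 12.8%, Anxa5 9.51%, Anxa2 9.15% and Anxa1 5.44%. The share of Anxa2 was 8.22% and 12.7% with mCDCs and 6.78% and 8.89% with vehicle, and that of Anxa1 was 3.69% and 7.75% against 5.71% and 4.61%. The groups thus overlapped for both shares, and each had its highest value in mCDC replicate 2, where the share of Anxa11 was lowest (25.8%). The shares of Anxa5 and Anxa6 stayed within 9.05% to 9.82% and 23.0% to 25.3% over the 4 libraries. Summed per length, all annexins reached 795 and 947 TPM with mCDCs and 802 and 751 TPM with vehicle.

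**Figure D3:**
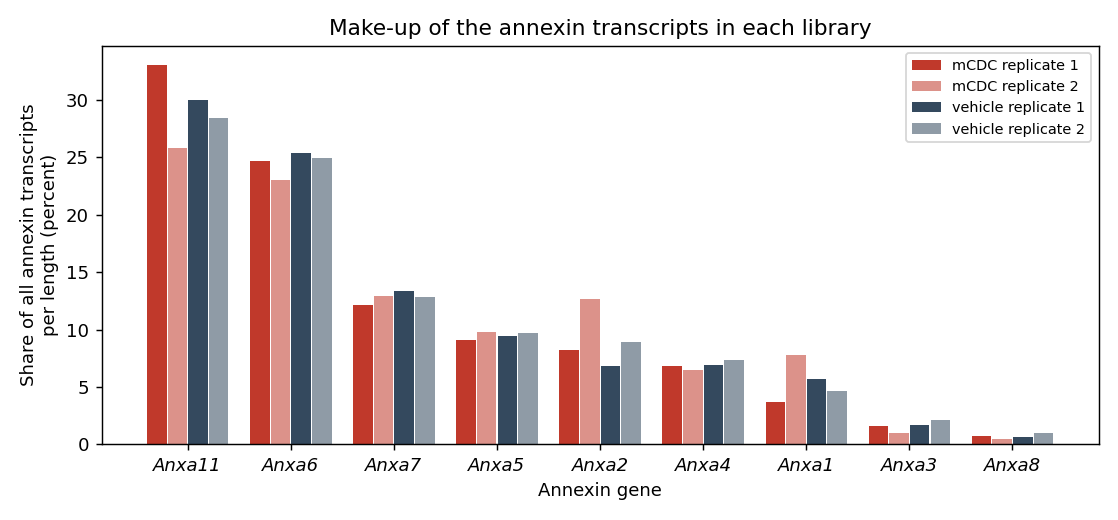
Share of each annexin gene in the summed annexin transcripts per length of each library, in percent, for the 9 annexins that reach a visible share. Anxa11 and Anxa6 lead in every library, and the shares of Anxa2 and Anxa1 are highest in mCDC replicate 2, at 12.7% and 7.75%.

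A further 70 genes of membrane repair in 7 lists were examined, of which 67 are in the table and 60 were tested. Of these 60, 1 was called higher and 2 lower, against 1.26% and 2.74% of all genes, shares too near for the counts to set the lists apart. They had 33 fold changes above 0, 27 below and a median log2 fold change of 0.04. The 3 called genes all belong to caveolae, the flask-shaped pits that buffer membrane tension and that Cav3 shapes in muscle. Murc (cavin-4, the muscle cavin) was at 191 and 241 CPM with mCDCs and at 161 and 121 CPM with vehicle, with a log2 fold change of 0.62 ± 0.18 (SE; adjusted p = 0.635 by edgeR). Cav1, the caveolin of endothelium, fat and stroma, was at 41.5 and 36.0 CPM with mCDCs and at 45.7 and 79.2 CPM with vehicle, with a log2 fold change of -0.69 ± 0.24 (SE; adjusted p = 0.685 by edgeR). Cav2, the partner of caveolin-1, was at 8.56 and 5.57 CPM against 9.46 and 14.1 CPM, with a log2 fold change of -0.73 ± 0.28 (SE; adjusted p = 0.705 by edgeR).

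For all 3 genes the groups did not overlap, and for all 3 vehicle replicate 2 was the library farthest from the mCDC pair. Without vehicle replicate 2, none of the 3 was called: the log2 fold changes were 0.42 for Murc, -0.24 for Cav1 and -0.42 for Cav2. Without mCDC replicate 2 those of Murc (0.44) and Cav2 (-0.46) were not called, and Cav1 was. The ratio of Cav3 to Cav1 in CPM was 2.26 and 3.25 with mCDCs and 1.74 and 1.07 with vehicle, so it was higher in both mCDC libraries, with vehicle replicate 2 lowest. The other caveolar genes were not called. Among them Pacsin3, which bends caveolar membrane in muscle, had a log2 fold change of 0.27 and Bin1, which shapes T-tubules, 0.14. Sdpr (cavin-2), at -0.59, and Ehd2, which sits at the caveolar neck, at -0.34, were singled out after their values were seen because they follow Cav1.

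Markers of several other cell types were, like Cav1 and Cav2, highest in vehicle replicate 2. Of the 60 related genes tested, 20 were highest in that library, and the share over all genes was not counted. Of all genes tested, 2.74% were called lower. The 8 endothelial markers, all tested, were each highest in vehicle replicate 2, and they summed to 171 and 139 CPM with mCDCs and 134 and 302 CPM with vehicle, with 1 called lower. Cdh5, the cadherin of endothelial junctions, was at 44.4 and 31.7 CPM with mCDCs and at 35.9 and 79.2 CPM with vehicle. The 10 fibroblast markers were also each highest in vehicle replicate 2, at a sum of 736 and 595 CPM against 697 and 1113 CPM, with 2 called lower. So were all 6 Schwann cell markers, at a sum of 30.8 and 35.8 CPM against 31.6 and 53.3 CPM, and all 6 erythroid markers, at 427 and 441 CPM against 382 and 697 CPM, with none of the former called and 1 of the latter, Hba-a2, called lower and high in both vehicle libraries (14.5 and 14.8 CPM against 28.6 and 31.7 CPM). Of the 6 adipocyte markers only Fabp4, which endothelium also makes, was highest there, at 115 and 114 CPM with mCDCs and 124 and 200 CPM with vehicle. Adipoq, the fat cell hormone adiponectin, was lowest there, at 3.33 and 3.33 CPM against 5.46 and 1.49 CPM. In whole muscle, fewer cells of a type and less RNA per cell cannot be told apart, and the part of these cells in the fold changes of Cav1 and Cav2 was not tested.

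**Figure D4:**
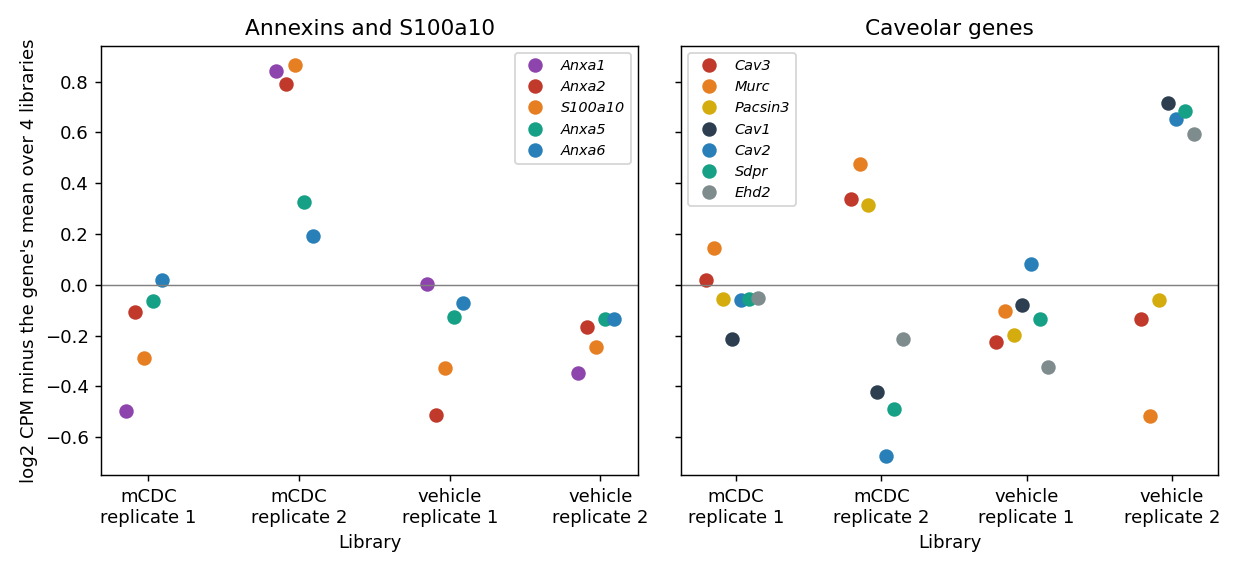
Log2 CPM of each gene minus its mean over the 4 libraries, for the annexins with S100a10 (left) and for caveolar genes (right). Anxa1, Anxa2 and S100a10 stand 0.79 to 0.86 above their means in mCDC replicate 2, and Cav1, Cav2, Sdpr and Ehd2 stand 0.60 to 0.72 above theirs in vehicle replicate 2, where Murc is lowest.

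S100a10 codes for the p11 subunit that joins annexin A2 into a membrane-bridging tetramer. It was at 28.7 and 64.0 CPM with mCDCs and at 27.9 and 29.6 CPM with vehicle. As for Anxa2, mCDC replicate 2 was the highest library, while the other 3 lay close together and the groups overlapped. The log2 fold change was 0.69 ± 0.32 (SE; adjusted p = 0.724 by edgeR), and without mCDC replicate 2 it was -0.00048. It met the limits of a call with DESeq2 and with edgeR's likelihood ratio test, at log2 fold changes of 0.70 and 0.69. The ratio of Anxa2 to S100a10 in CPM was 1.57 and 1.31 with mCDCs and 1.22 and 1.46 with vehicle, a narrower range than that of either gene. The other partners were not called: S100a6 had a log2 fold change of -0.092, S100a4 -0.26 and Ahnak, a large scaffold bound by annexin A2 and dysferlin, -0.17.

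The 6 other annexins tested had a median log2 fold change of 0.05 and none was called. With a library left out that median ranged from -0.092 without vehicle replicate 1 to 0.19 without vehicle replicate 2. Anxa11 was at 300.3 and 283 CPM with mCDCs and at 249 and 229 CPM with vehicle, so that the groups did not overlap, with a log2 fold change of 0.29 ± 0.13 (SE; adjusted p = 0.724 by edgeR). Anxa7 (0.23) also lay above 0, and Anxa3 (-0.29) below. The 7 other ferlins and anoctamins tested all had log2 fold changes below 0, with a median of -0.10 and none called. However, 3 of the 7 lay above 0 with the trends of length and GC content removed, and 1 with DESeq2. With a library left out 1 or 2 did, and the median ranged from -0.28 without mCDC replicate 2 to -0.072 without mCDC replicate 1. Ano1, a chloride channel, had a log2 fold change of -0.48 (adjusted p = 0.713 by edgeR), and Ano6, the scramblase that exposes phosphatidylserine, -0.099.

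The ESCRT genes, whose products pinch off damaged membrane, were 12 in number, and none was called. Their median log2 fold change was 0.14, 10 of the 12 lay above 0 (9 with library totals alone, 11 with the trends removed), and for 7 of the 12 both mCDC libraries were above both vehicle libraries, as for 19.2% of all genes. Without vehicle replicate 2 the median was 0.045 with 8 of the 12 above 0, and without vehicle replicate 1 it was 0.24. Chmp4b, which builds the ESCRT filament, was at 159 and 170 CPM with mCDCs and at 154 and 134 CPM with vehicle, and Pdcd6ip (ALIX) at 118 and 128 CPM against 126 and 96.9 CPM. The fold change of Chmp4c, a low gene, was the largest of the list at -0.70 on the log2 scale. Neither the 9 tested genes of the calpain system (median 0.04) nor the 11 of vesicle exocytosis and lysosomal repair (median 0.06) held a called gene. Capns1, the shared small subunit of calpains 1 and 2, had a log2 fold change of 0.15, Capn2 0.043, Vamp2, a vesicle fusion protein, 0.20 and Parvb, a dysferlin-binding protein of the fibre's adhesion sites, 0.25.

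Mature fibre markers were abundant in all 4 libraries, as in the labelled muscle. Myh7, the slow myosin, was at 46884 and 39234 CPM with mCDCs and at 47467 and 38237 CPM with vehicle, and none of the 10 fibre markers was called. Annexins are also made by macrophages and stromal cells. The 12 macrophage markers summed to 72.0 and 85.0 CPM with mCDCs and to 68.7 and 106 CPM with vehicle, so the groups overlapped. Among the 12, 1 was called higher and 1 lower, where 1.26% and 2.74% of all genes were. Cd68, a lysosomal protein and the one called higher, was highest in mCDC replicate 2, at 15.4 CPM against 4.13, 2.71 and 4.15 CPM in the others, whereas Csf1r, the receptor that macrophages need to survive and the one called lower, was highest in vehicle replicate 2, at 8.84 CPM against 5.11, 3.93 and 5.57 CPM. The immediate early genes, which respond to stress and to handling of tissue, summed to 370 and 438 CPM with mCDCs and to 308 and 350 CPM with vehicle. Atf3 among them was at 21.6 and 60.0 CPM with mCDCs and at 14.0 and 11.8 CPM with vehicle, and like Anxa1, Anxa2 and S100a10 it was highest in mCDC replicate 2. Of the 7 genes it alone was called, higher at a log2 fold change of 1.65 (adjusted p = 0.567 by edgeR). Of the 7, 4 were highest in mCDC replicate 2, against 28.0% of all genes. Jun, at 215 and 139 CPM with mCDCs and 210 and 157 CPM with vehicle, was lowest there, as was Fosb. The log2 fold changes were -0.053 for Jun, -0.76 for Fosb and 0.040 for Fos. Myog, the myogenic factor of regenerating fibres, was also called higher and highest in mCDC replicate 2, at 32.6 and 63.3 CPM with mCDCs and at 21.3 and 24.4 CPM with vehicle, while the other 6 regenerating fibre markers were not called and the list summed to 672 and 682 CPM against 721 and 650 CPM. Of the 6 satellite cell markers tested, Pax7 was called higher, with a log2 fold change of 0.76, and Chodl lower. The satellite list summed to 66.0 and 61.3 CPM against 54.1 and 59.2 CPM. The 6 mural markers summed to 236 and 273 CPM against 193 and 243 CPM. Cspg4 was called higher and highest in mCDC replicate 2 (61.7 and 105 CPM against 51.8 and 56.2 CPM), and Rgs5 was called lower. The 6 tendon markers summed to 166 and 218 CPM against 227 and 244 CPM. For 5 of the 6 both mCDC libraries lay below both vehicle libraries, as for 19.5% of all genes, and Tnmd, Fmod and Comp were called lower. Scx was called higher and highest in mCDC replicate 2 (40.4 and 55.1 CPM against 29.2 and 23.4 CPM). The part of all these markers in the values of the annexins was not tested.

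Among the genes whose pattern over the 4 libraries was most like that of Dysf, by the largest absolute difference of centred log2 CPM among 7684 genes, were Itga3 (0.025) and Smarcb1 (0.028). For Anxa2 the nearest were Manf (0.089), Rpl3 (0.12) and Mybph (0.13). Rpl3, a ribosomal protein gene, was at 122 and 227 CPM with mCDCs and at 90.4 and 104 CPM with vehicle, and Manf, a chaperone of the endoplasmic reticulum, at 22.5 and 42.3 CPM against 18.9 and 23.1 CPM. Both share with Anxa2 the high value of mCDC replicate 2. With 4 libraries such likeness is a description only.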

How the data were processed

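RNA from 4 soleus muscles (2 mCDC, 2 vehicle) was sequenced with single-end reads; the labels name a stranded mRNA kit and the study's methods another kit, so strand is uncertain. The authors mapped reads to a UCSC transcript set and deposited the expected counts that RSEM gave for each gene, not normalized; the submitters' processing notes name Bowtie2 2.1.0, RSEM 1.2.15 and mm10. Of the deposited values, 15.7% were not whole. Here expected counts were rounded and tested on the whole table with the quasi-likelihood F-test of edgeR 4.0.16 (R 4.3.3, legacy = FALSE) after filterByExpr and TMM scaling, with Benjamini-Hochberg adjustment over 13652 genes. CPM values use the same scaling. Called means over 1.5-fold with unadjusted p under 0.05, after the study's methods. The fit was tested on simulated data. DESeq2 1.42.0, other scalings, filters, a replicate block, removal of length and GC trends, and leaving out each library were alternatives.

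Coordinates and transcript lengths came from GENCODE vM21 (GRCm38, the build of mm10), in which 22750 of 24054 symbols matched by name and 933 by an older name, and promoters from RefSeq (GRCm38.p6), where 9 of the 10 genes were found. The transcript used for each member shared no 31-base word with another gene's transcripts on the same strand (0.0%); exon overlaps given in the text count all annotated transcripts. The members and all gene lists were chosen with earlier results of these data known. Named genes were all members, every called related gene, for each related list at most the 3 largest changes and the 2 highest genes, marker genes, and the 3 genes most like Dysf and Anxa2, of which 1 is not reported here.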

Additional observations from a re-analysis of the deposited data

How the results depend on the processing

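The 10 genes and 4 related genes were recomputed under 15 alternatives, and 184 of these 210 fold changes kept their direction and their side of the limits. One member was called, but 0 with library totals only and 0 to 3 with each library left out in turn, where a lone library was assumed to vary like the other group. Members with an unadjusted p under 0.05 were 3, but 1 with edgeR's likelihood ratio test, 0 with library totals only, 1 with the length and GC trend removed, 1 with the replicate block and that trend removed, and 0 to 6 with a library left out. Related genes called were 3, but 5 by likelihood ratio, 4 with DESeq2 and with no filter on low counts, 2 with library totals only and with the replicate block, and 0 to 5 with a library left out. The median log2 fold change of the members ranged from 0.12 to 0.44 with a library left out, and single fold changes from -0.38 to 0.13 for Myof, -0.60 to 0.24 for Ano5, -0.13 to 0.19 for Capn3, -0.34 to 1.01 for Anxa1, 0.22 to 1.12 for Anxa2 and -0.00048 to 1.15 for S100a10. Signs turned with the trend removed for Myof (0.029, and 0.052 with the block too) and Ano5 (0.094 and 0.044) and with library totals for Capn3 (-0.060); when a library was left out they turned for Myof (vehicle replicate 2), Ano5, Anxa1 and S100a10 (mCDC replicate 2) and Capn3 (-0.083 without mCDC replicate 1, and vehicle replicate 2); the cause was not tested. The difference between replicates 1 and 2 was hardly shared by the groups (correlation -0.039 over 13652 genes). That value cannot tell whether libraries were handled in pairs. With the replicate block 480 genes were called against 546, Anxa2 at 0.68 among them, and Cav2 lost its call (-0.73). Of called genes, 31.5% were higher, 19.2% with library totals only and 43.4% with the trend removed, when all 10 members lay above 0. DESeq2 gave Anxa2 0.75. Over all genes, 348 to 1107 were called with a library left out. Depth was least for Myof, with 112 to 171 counts.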
